A study of Mus musculus with 36 samples.

Results

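Methylation was read at the genes for 10 enzymes and cofactors that write, copy or remove CpG methylation: Tet2, Tet3, Dnmt1, Dnmt3a, Dnmt3b, Dnmt3l, Uhrf1, Tdg, Mbd4 and Gadd45b. These 10 genes, out of 20807 autosomal protein-coding genes of the annotation, were listed by name for their roles. All CpGs within each gene and 2 kb to each side were considered, and 809 of them, out of 921363 on the autosomes, had at least 5 reads in every one of 35 embryonic brains. The values are methylation of these genes' DNA and say nothing of their RNA or protein.

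DNA methyltransferases place a methyl group on the cytosine of CpG. DNMT3A and DNMT3B set new marks, DNMT3L is a catalytically inactive partner that stimulates them, and DNMT1 copies marks to the new strand after replication with UHRF1, which binds hemimethylated DNA. TET dioxygenases oxidise 5-methylcytosine stepwise, and the glycosylase TDG removes the later oxidation products so that base excision repair can restore cytosine. MBD4 is a glycosylase acting on T or U paired with G, and GADD45B is a stress-induced factor linked to active demethylation. Genes for such enzymes usually start in CpG-rich stretches that stay unmethylated in somatic tissue, while the rest of the transcribed gene is usually methylated.

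The tissue was the whole brain of single mouse embryos at E11.5, from forebrain to hindbrain, on the inbred 129S6.cg background. The WT embryos lacked, the HET embryos carried 1 copy of and the KO embryos carried 2 copies of the tm1Koh allele of Tet1, a germline insertion at the first coding ATG, so every cell of a KO embryo carried it. All dams ate a custom diet containing the antibiotic SST, which held folic acid (FA) in excess at 30 ppm, at the control dose of 3 ppm, or depleted to 0.1 ppm. By their deposited labels, the 35 embryos used were 3 WT, 5 HET and 6 KO on 30 ppm, 4 WT, 3 HET and 5 KO on 3 ppm, and 2 WT, 2 HET and 5 KO on 0.1 ppm. The titles also mark a phenotype: NTD in 5 KO embryos, inHB in 4 KO, 2 HET and 1 WT, and norm in the other 7 KO, 8 HET and 8 WT. Genotype and phenotype are therefore partly tied, and their parts in the results were not tested beyond a fit on embryos labelled norm. The comparisons ask whether loss of Tet1 or the maternal diet changes methylation at the genes of the remaining enzymes.

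Mean coverage ranged from 12.1 to 61.5 reads per CpG over the embryos, and the deepest library was WT on 3 ppm replicate 1. At a CpG of Tet1 (chr10:62884019), picked because it separates the labelled WT and KO embryos other than 3, the level was 0 to 7.32% in 7 WT embryos, 8.33 to 69.2% in 10 HET embryos and 69.6 to 100% in 15 KO embryos. In 3 libraries it went against the label: 45% of 20 reads in the library labelled KO on 30 ppm replicate 1, 36.36% of 33 reads in WT on 30 ppm replicate 2 and 40% of 15 reads in WT on 0.1 ppm replicate 2. The separation of the 7 WT from the 15 KO embryos was fixed by that choice, and only the HET embryos and those 3 libraries are a check. The deposited title makes the first of them KO, whereas the sample list that accompanies the study enters this embryo as HET, and it gives both others as WT. Groups follow the deposited labels here, so this embryo counts as KO unless stated. The levels of all 3 libraries at the CpG lie inside the HET range. The 3 had been set apart before this CpG was picked. Results below are given with all 35 embryos and, where they change without these 3 libraries, without them too. Those left out are a KO library with a low and WT libraries with a high Tet1 level. That choice by itself favours larger KO minus WT differences and more calls without them. Over all CpGs covered in every embryo, the mean level was 31.6% ± 0.419 (SD, n = 9) in WT, 32.2% ± 0.323 (n = 10) in HET and 33.9% ± 0.686 (n = 16) in KO, so the genes are read against a genome that was itself higher in KO. The lowest KO value, 31.56%, came from KO on 30 ppm replicate 1 and lay under the lowest HET value of 31.78%.

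The starts of most of these genes carried almost no methylation in any embryo, whatever the genotype or diet. Promoters were taken as 2 kb before to 1 kb after the annotated gene start, and bodies as the rest of the gene with 2 kb past its end. In WT the promoter level was 0.609% ± 0.196 (SD, n = 9) at Tet2, 0.709% ± 0.387 at Dnmt3a, 1.05% ± 0.197 at Dnmt3b, 0.647% ± 0.210 at Uhrf1, 0.577% ± 0.280 at Tdg, 0.878% ± 0.446 at Mbd4 and 1.37% ± 0.368 at Gadd45b. The highest value in any KO embryo at these 7 promoters was 2.68%, at Mbd4. They lay at or under that level in all 35 embryos.

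The promoter of Dnmt3b shows what such a start looks like, and it is printed for its CpG density. The 250 bases before the RefSeq start (GRCm38.p6, plus strand, chr2:153649199-153649448) are given 5′ to 3′, with the 6 CpGs that were covered in all embryos in capitals.
Dnmt3b promoter: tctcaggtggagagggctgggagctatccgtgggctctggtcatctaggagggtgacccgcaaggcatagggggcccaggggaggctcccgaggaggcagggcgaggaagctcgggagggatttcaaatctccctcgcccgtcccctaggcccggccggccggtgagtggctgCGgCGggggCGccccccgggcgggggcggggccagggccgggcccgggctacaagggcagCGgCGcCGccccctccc

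The annotated gene start was not always a CpG-rich start. For Dnmt1 it belongs to the upstream transcript Dnmt1-202, where the 5 measured CpGs stood at 86.0% ± 2.29 in WT (n = 9). The window of 1 kb around the downstream starts, which include Dnmt1-203 and Dnmt1-207, held 25 CpGs at 0.714% ± 0.331. For Tet3, the start windows of Tet3-202 and Tet3-203 stood at 0.635% ± 0.179 over 39 CpGs and 0.5996% ± 0.220 over 52 CpGs, whereas the only CpG covered near the outermost start, Tet3-204, was at 86.1% ± 8.31. Dnmt3a had a low internal start as well: 4 CpGs around Dnmt3a-203 and Dnmt3a-205 stood at 0.206% ± 0.518, and 6 CpGs around the later starts of Dnmt3a-207, Dnmt3a-209 and Dnmt3a-217 at 93.0% ± 2.61. At Dnmt3l, the 4 CpGs around its first coding transcript start, Dnmt3l-205, were at 65.5% ± 5.41, and no CpG was covered in every embryo near its later starts.

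Of the 809 CpGs, 600 were under 10% in WT on average, 168 were over 80% and 41 lay between. Tet3 had 91 under 10% and 73 over 80%, Dnmt1 25 and 31, while the 54 of Tdg and the 16 of Mbd4 were all under 10%. Gadd45b, a short gene of 2.13 kb, had 91 of 93 CpGs under 10%, with 68 of the 93 in the promoter and 25 in the body and its downstream flank. Coverage is uneven, because the method cuts at MspI and TaqI sites: the CpGs covered in every embryo made up 33.5% of the reference CpGs of Gadd45b and 3.48% of those of Dnmt3l. No region could be tested for the Tet3 promoter, the Tdg body and the Mbd4 body, which held fewer than 3 such CpGs, so 17 regions were tested.

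**Figure D1:**
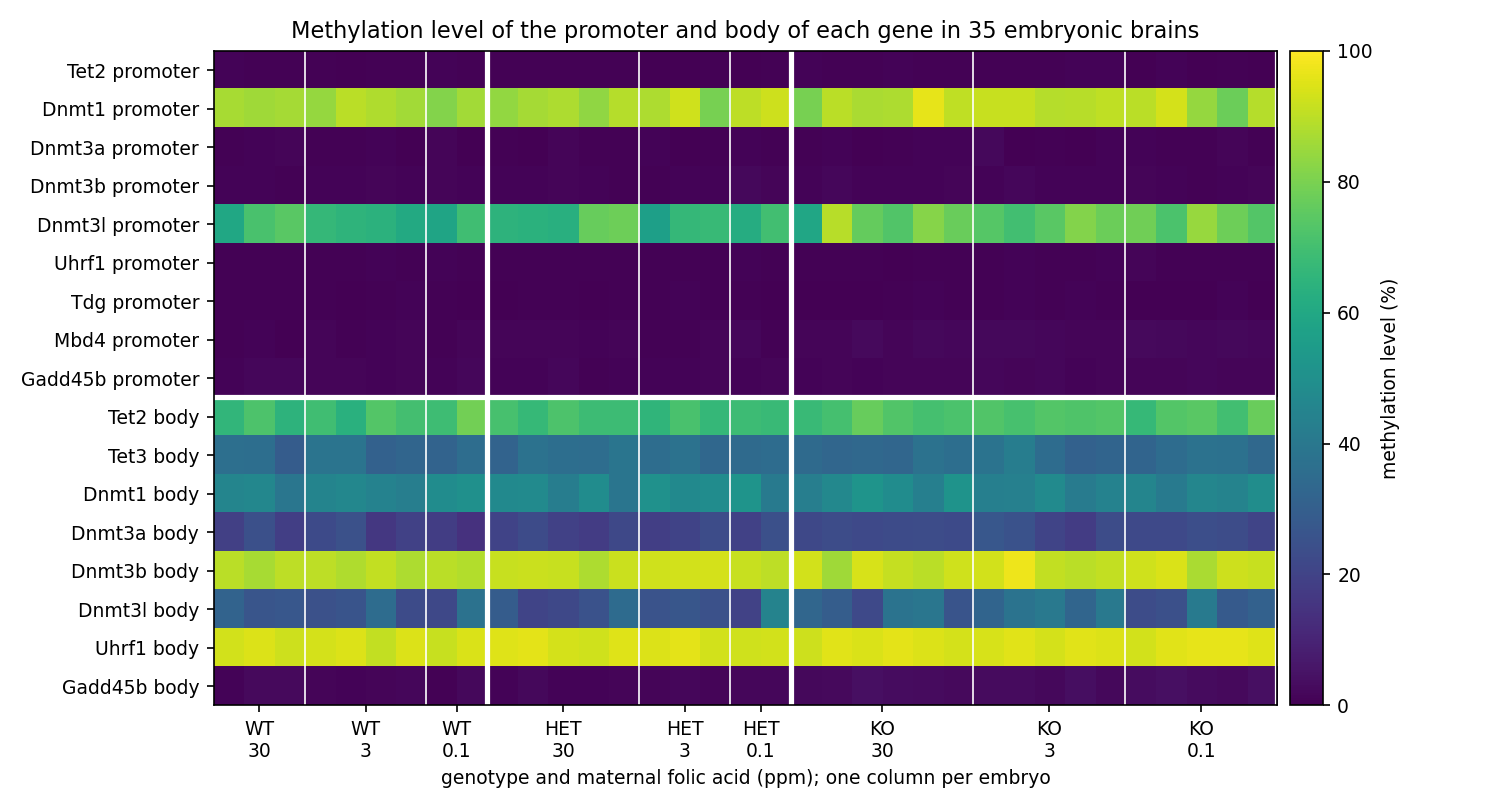
Methylation level (%, colour) of the 17 tested promoters and bodies, with 1 column per embryo ordered by genotype and maternal FA. Promoters other than those of Dnmt1 and Dnmt3l stay near 0 in all 35 columns, and levels of bodies run from the Gadd45b body, at 1.59% in WT on average, to that of Uhrf1, at 93.4%.

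Loss of Tet1 left most of these regions within 5 points of WT, and 1 of 17 passed both the test and the size threshold. A call needed a level shift of 5 percentage points or more together with an adjusted p below 0.05, in a quasi-binomial model with diet as covariate and Benjamini-Hochberg adjustment over all 26301 gene regions. Differences and their SE come from a separate linear fit that weighs embryos equally. The quasi-binomial test weighs reads, so deep libraries count for more, and its p need not match the SE. Of all regions, 16.2% were called, 8.65% of promoters (members: 1 of 9) and 23.7% of bodies (members: 0 of 8). The median KO minus WT difference was 0.0832 points over the 9 member promoters and 1.90 points over the 8 bodies, against 0.207 and 2.66 points over all promoters and bodies. Of the 17 differences, 16 were above 0, compared with 85.6% of all regions.

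**Figure D2:**
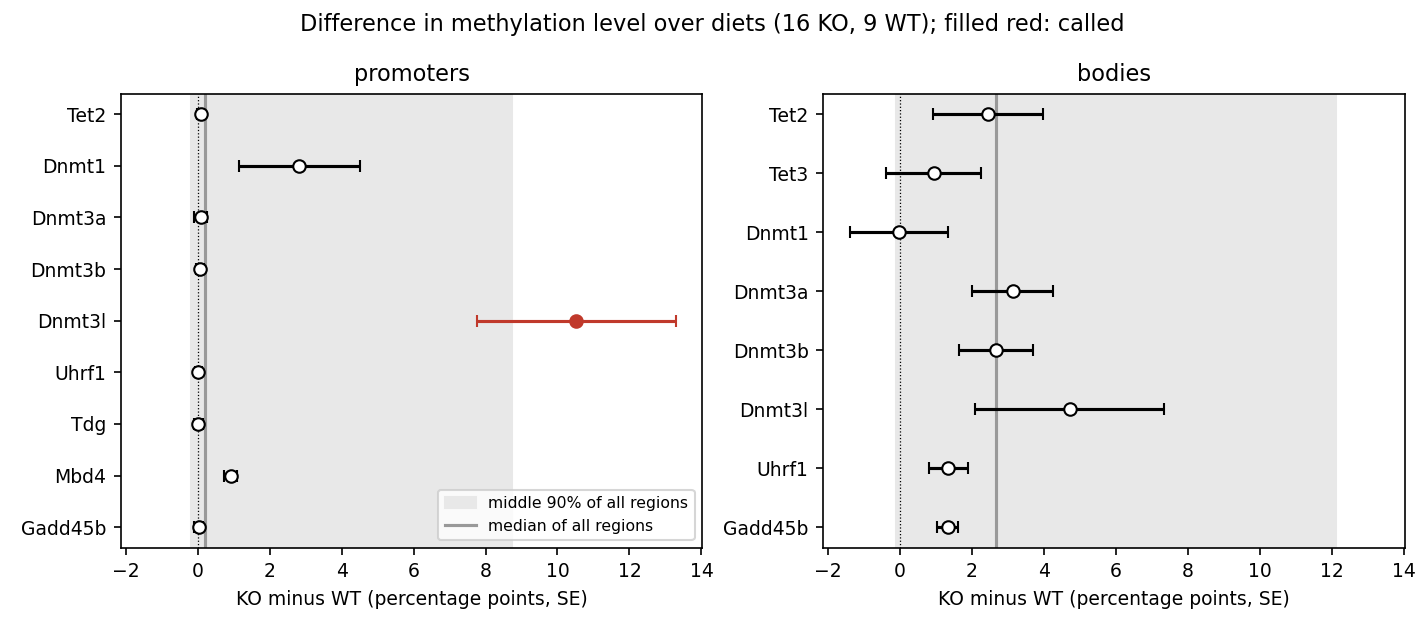
KO minus WT difference in methylation level (percentage points, points with SE bars) of each tested promoter and body over diets, with 16 KO and 9 WT embryos. The grey band spans the middle 90% of all regions of that kind and the grey line is their median. Only the Dnmt3l promoter, in red, was called, at 10.5 points.

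Among the de novo methylation genes, the Dnmt3l promoter was the called region. Its 4 CpGs were at 58.5, 64.9 and 74.3% (lowest, median, highest) in the 9 WT embryos, 56.4, 65.6 and 77.8% in the 10 HET embryos and 59.0, 76.8 and 89.2% in the 16 KO embryos. The groups overlapped, 10 of the 16 KO values exceeding the highest WT value, and the lowest KO value came from the library at odds with its label. The difference was 10.5 ± 2.77 points (SE, adjusted p = 0.00188), and 13.1 points without the 3 libraries (adjusted p = 7.09e-05). These same 4 CpGs make up the Dnmt3l tile of 1 kb that was called, so region and tile are one measurement. As a tile, whose threshold was 10 points, it was no longer called when any of 4 single libraries was left out (9.32 to 9.95 points), and with a minimum of 10 reads neither the promoter nor the tile could be tested. The Dnmt3l body differed by 4.71 ± 2.63 points (adjusted p = 0.0178), under the size threshold. It passed that threshold without the 3 libraries, at 6.61 points (adjusted p = 0.00844), and with litter as a block, at 5.37 points (adjusted p = 0.0302), which brings the called regions to 2 of 17 in either case (20.2 and 15.7% of all regions).

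The Dnmt3l CpGs do not belong to Dnmt3l alone. Aire, the autoimmune regulator gene, runs on the opposite strand and overlaps the start of Dnmt3l. The 4 CpGs lie in an intron of Dnmt3l that is exonic sequence of Aire. The called CpG with the largest difference there (chr10:78042529, 242 bases inside Dnmt3l-205) was at 72.7% ± 7.58 in WT and 88.3% ± 9.09 in KO, a difference of 15.5 points (adjusted p = 0.000504), and 13 of 16 KO values exceeded the WT maximum. It is printed, in capitals, on the plus strand with the bases next to it (chr10:78042515-78042544).
Dnmt3l CpG: acctgggctggagaCGctctttgaggccag

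Dnmt3a, which encodes a de novo methyltransferase, had no called change at its start. Its promoter was at 0.805% in KO and 0.709% in WT, a difference of 0.0861 ± 0.177 points (adjusted p = 0.873). The body as a whole was at 22.6% and 19.6% (3.13 ± 1.13 points, adjusted p = 0.0776). This average holds many CpGs of the unmethylated start, since the annotated body begins 1 kb inside the gene. Over the gene and its 2 kb flanks, with every window of 1 kb around a coding transcript start taken out, the difference was 12.9 points (adjusted p = 9.72e-07).

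In tiles of 1 kb, 1 of the 4 tested in Dnmt3a was called. Tiles were called at 10 points or more, and 4 of the 21 tiles tested in these genes were called, all higher in KO, against 14.2% of the 52822 tiles tested in the genome. The Dnmt3a tile (chr12:3871001-3872000, 6 CpGs) lies in an intron, 65813 bases from the gene start and 5629 bases after the start of Dnmt3a-211. WT embryos were at 8.69, 21.7 and 6.49% on 30 ppm, from 6.54 to 12.7% on 3 ppm (4 embryos), and 10.0 and 16.4% on 0.1 ppm. KO embryos were at 12.6, 32.2, 31.8, 40.17, 39.2 and 35.3% on 30 ppm, 37.6, 34.8, 39.2, 33.1 and 36.22% on 3 ppm, and 40.14, 38.5, 42.6, 38.2 and 38.9% on 0.1 ppm. All KO embryos but 1 stood above all WT embryos, and the one inside the WT range, at 12.6%, is the library labelled KO on 30 ppm whose Tet1 CpG goes against the label and which the study lists as HET. Its level lies within the HET range at this tile. The highest WT value, 21.7%, is likewise a library at odds with its label.

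The difference at the Dnmt3a tile was 23.6 ± 2.55 points (adjusted p = 7.71e-10), and 27.1 points without the 3 libraries. HET embryos ran from 10.1 to 20% with a median of 13.6%, 2.24 ± 1.91 points from WT (adjusted p = 0.579). Without the 3 libraries the HET difference was 4.77 ± 1.34 points (adjusted p = 0.0251), still under the size threshold. The 6 CpGs of the tile are shown because 5 of them were called singly, in capitals on the plus strand (chr12:3871756-3871886).
Dnmt3a intron: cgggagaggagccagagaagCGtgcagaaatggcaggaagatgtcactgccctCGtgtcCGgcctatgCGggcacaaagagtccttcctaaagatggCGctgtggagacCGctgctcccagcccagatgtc

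The one with the largest difference of all tested CpGs of the 10 genes, chr12:3871815, is the third in capitals. It was at 15.5% ± 7.30 in WT (n = 9), 22.9% ± 7.84 in HET (n = 10) and 56.5% ± 12.4 in KO (n = 16), a difference of 40.54 points (adjusted p = 1.70e-14), and 15 of 16 KO values exceeded the WT maximum. Another 5 called CpGs of Dnmt3a lay outside the tile. Among them, a CpG in an earlier intron (chr12:3842990), singled out after its values were seen, was at 27.5% in WT and 58.5% in KO, with as few as 6 reads in an embryo.

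Dnmt3b, the other de novo enzyme, had a body at 89.1% in WT and 91.7% in KO. That difference of 2.67 ± 1.04 points passed the adjusted p (0.0451) without reaching 5 points, and its adjusted p was 0.163 without the 3 libraries. Its promoter differed by 0.0715 ± 0.110 points. The tile of Dnmt3b with the largest difference (chr2:153676001-153677000, intronic) was at 89.0% ± 1.93 in WT and 91.8% ± 3.58 in KO (adjusted p = 0.120).

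For maintenance, neither gene had a called region over diets with all embryos. The Dnmt1 promoter was at 86.0% in WT and 88.5% in KO (2.83 ± 1.69 points, adjusted p = 0.0744). It was called, at 5.64 points, among embryos labelled norm. That set also lacks KO on 30 ppm replicate 1 and WT on 0.1 ppm replicate 2, both at odds with their labels. It keeps WT on 30 ppm replicate 2, the remaining library at odds with its label. The Dnmt1 body was at 45.4% in WT and 45.64% in KO, and the difference after adjustment for diet was -0.0272 ± 1.37 points (adjusted p = 0.901). By diet it was 3.69 ± 2.73 points on 30 ppm, -0.612 ± 1.35 on 3 ppm and -4.33 ± 2.23 on 0.1 ppm, none called, and the difference between diets did not pass the test (adjusted p = 0.910 and 0.998 against 3 ppm). On 0.1 ppm it was called without KO replicate 5. The sign over diets turned under several settings, among them without the 3 libraries (0.906 points). A region's level pools the reads of its CpGs, and Dnmt1 has 25 CpGs under 10% and 31 over 80% in WT. How a library's reads split between low and high CpGs therefore enters the level, and its part in these differences was not tested. Over the gene and its 2 kb flanks without all coding start windows, the difference was 2.36 points (adjusted p = 2.36e-05). The Dnmt1 tile with the largest difference (chr9:20958001-20959000, intronic, 9 CpGs) was at 86.5% ± 1.55 in WT and 90.9% ± 3.51 in KO, and 14 of 16 KO values exceeded the WT maximum. The difference of 4.47 ± 1.28 points (adjusted p = 0.000543) stayed under the tile threshold. Uhrf1 had the most methylated body, 93.4% ± 1.41 in WT and 94.7% ± 1.13 in KO (1.34 ± 0.537 points, adjusted p = 0.0678). Its tile with the largest difference (chr17:56313001-56314000, intronic) was at 93.9% in WT and 97.4% in KO (3.48 ± 1.15 points, adjusted p = 0.00555).

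Of the remaining TET genes, Tet3 carried the largest tile difference in the set. The tile (chr6:83455001-83456000, 3 CpGs) lies in the 5′ UTR exon of transcript Tet3-203, about 1 kb inside its start and beside the unmethylated start window. The WT embryos had 16.8, 30.0 and 11.6% on 30 ppm, 20.1, 17.5, 11.8 and 22.7% on 3 ppm, and 14.7 and 34.6% on 0.1 ppm. The KO embryos had 19.3, 44.6, 42.6, 42.11, 37.5 and 35.9% on 30 ppm, 57.1, 48.6, 44.8, 53.97 and 52.6% on 3 ppm, and 54.9, 52.2, 45, 50.6 and 52.7% on 0.1 ppm. All but 1 of the 16 KO embryos were above all WT embryos. The exception, at 19.3%, and the WT values of 30.0 and 34.6% are the 3 libraries at odds with their labels.

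The Tet3 difference was 26.0 ± 3.29 points (adjusted p = 1.90e-08), and 31.7 points without those libraries. HET embryos ran from 15.8 to 38.1% with a median of 20.7%, 3.21 ± 3.02 points from WT (adjusted p = 0.697). Without the 3 libraries the HET difference was 6.91 ± 2.53 points (adjusted p = 0.175). The highest HET value exceeded the WT maximum and lay inside the KO range. The KO-labelled library at 19.3% lay within the HET range. The 3 CpGs were called singly too, each with few reads (6 to 8 in the shallowest embryo). The CpG with the largest difference, chr6:83455308, was at 26.7% ± 10.2 in WT, 29.1% ± 10.0 in HET and 59.8% ± 9.51 in KO. It and its neighbour chr6:83455305 are in capitals on the plus strand (chr6:83455292-83455321).
Tet3 exon: ggcaagacagtggCGgCGgcagcccccaag

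Over its whole body, with 174 CpGs, Tet3 was at 34.4% ± 3.30 in WT and 35.21% ± 2.91 in KO (0.938 ± 1.32 points, adjusted p = 0.895). This level, too, pools low and high CpGs. Over the gene and its 2 kb flanks without the coding start windows, the difference was 3.31 points (adjusted p = 3.03e-05). The other 5 tested tiles of Tet3 differed by 1.17 to 3.62 points and none was called. A further 3 intronic CpGs of Tet3 were called at 12.97 to 15.99 points.

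Tet2 changed in an intron, from an already high level. The tile (chr3:133522001-133523000, 4 CpGs, 22622 bases from the gene start) was at 63.5, 78.0 and 87.0% (lowest, median, highest) in WT, 64.6, 80.7 and 87.9% in HET and 72.6, 89.2 and 95.3% in KO. The ranges overlapped, and 11 of 16 KO values exceeded the WT maximum. The difference was 11.8 ± 2.82 points (adjusted p = 0.00127), and 14.3 points without the 3 libraries. The lowest KO and the highest WT value were again from libraries at odds with their labels. The Tet2 promoter differed by 0.0832 ± 0.0958 points, and the body by 2.45 ± 1.52 points (adjusted p = 0.100). The body difference was 4.64 points (adjusted p = 0.00232) without the 3 libraries. The 4 CpGs of the tile are in capitals on the plus strand (chr3:133522480-133522556).
Tet2 intron: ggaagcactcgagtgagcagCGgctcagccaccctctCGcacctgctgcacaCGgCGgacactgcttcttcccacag

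The CpG of Tet2 with the largest difference, chr3:133522532, was at 64.0% ± 14.3 in WT and 80.9% ± 11.1 in KO (17.3 points, adjusted p = 0.0217), and 8 of 16 KO values exceeded the WT maximum. It is the third in capitals.

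**Figure D3:**
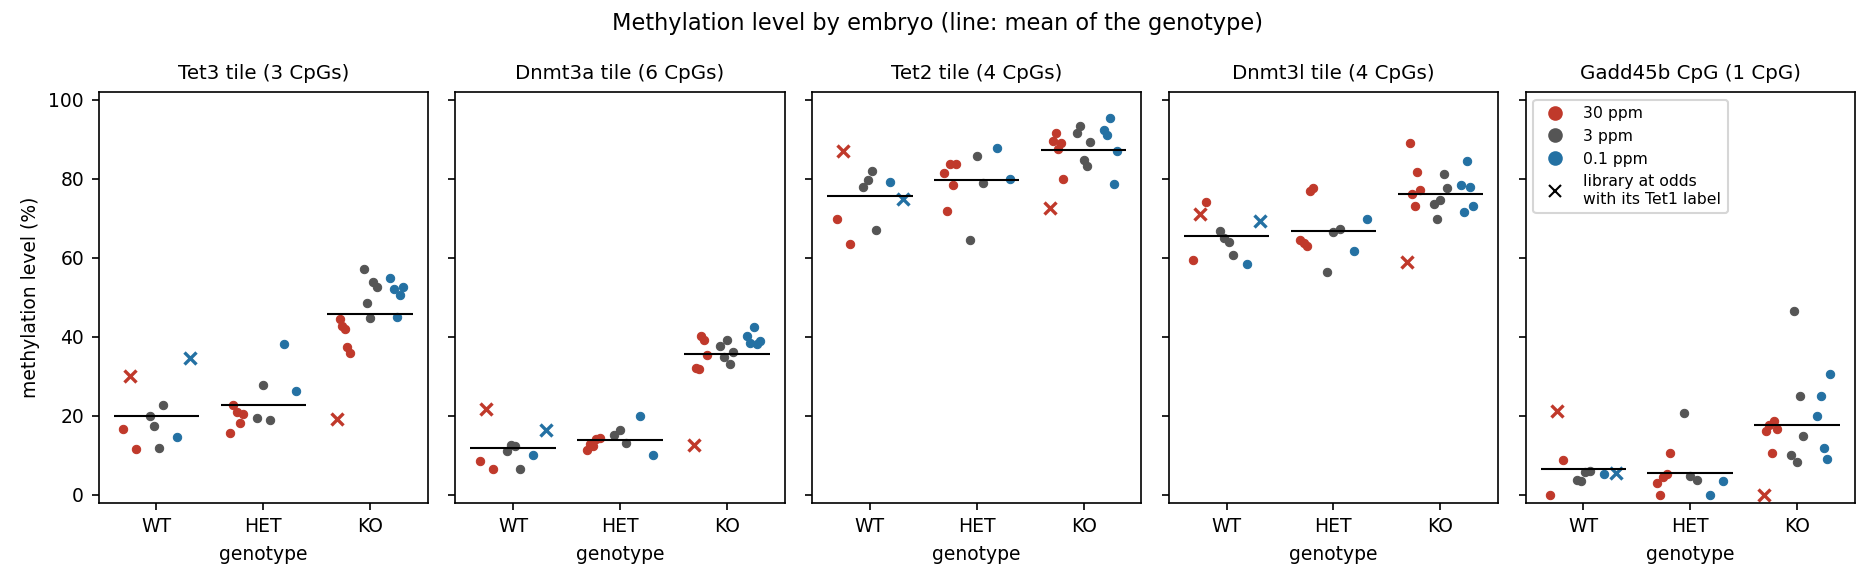
Methylation level (%) by embryo at the 4 called tiles and at the called Gadd45b CpG, with genotypes on the horizontal axis, colour for the maternal diet, crosses for the 3 libraries at odds with their Tet1 label and a line at each genotype's mean. At Tet3 and Dnmt3a, 15 of 16 KO embryos lie above all WT embryos, and at Tet3 1 HET embryo does too.

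The repair-side genes had low levels and small differences. The Tdg promoter was at 0.551% in KO and 0.577% in WT (0.0119 ± 0.125 points after adjustment for diet, opposite in sign to these means, adjusted p = 0.727), and no tile of Tdg was tested. The Mbd4 promoter rose from 0.878% ± 0.446 in WT to 1.82% ± 0.474 in KO. Its WT embryos ran from 0 to 1.36% and its KO embryos from 1.19 to 2.68%, and 12 of 16 KO values exceeded the WT maximum. The difference of 0.923 ± 0.183 points passed the adjusted p (0.000953) and stayed under 5 points. For this region the spread in the quasi-binomial test was held at that of read counting alone, the least allowed. The Mbd4 promoter also holds the start of Ift122, which is transcribed the other way. No tile of Mbd4 was tested.

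Gadd45b showed a small shift within its body. The body, with 25 CpGs, was at 0.744, 1.52 and 2.55% (lowest, median, highest) in WT, 0.913, 1.29 and 2.13% in HET and 1.98, 2.84 and 4.28% in KO. The KO and WT ranges overlapped, and 10 of 16 KO values exceeded the WT maximum. The difference was 1.32 ± 0.295 points (adjusted p = 0.000139). Over the gene and its 2 kb flanks without the start windows, it was 0.537 points (adjusted p = 0.0535). That set also holds CpGs before the gene start, which count as promoter here, so it is not the body alone. The promoter differed by 0.0294 ± 0.130 points. The called Gadd45b CpG (chr10:80931178), in a coding exon, was at 6.68% ± 5.94 in WT, 5.63% ± 6.06 in HET and 17.6% ± 10.8 in KO (11.0 points, adjusted p = 0.000255). Only 4 of 16 KO values exceeded the WT maximum, since the WT library at odds with its label was at 21.2%. It is in capitals on the plus strand (chr10:80931158-80931199).
Gadd45b exon: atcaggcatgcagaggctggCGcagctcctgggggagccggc

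**Figure D4:**
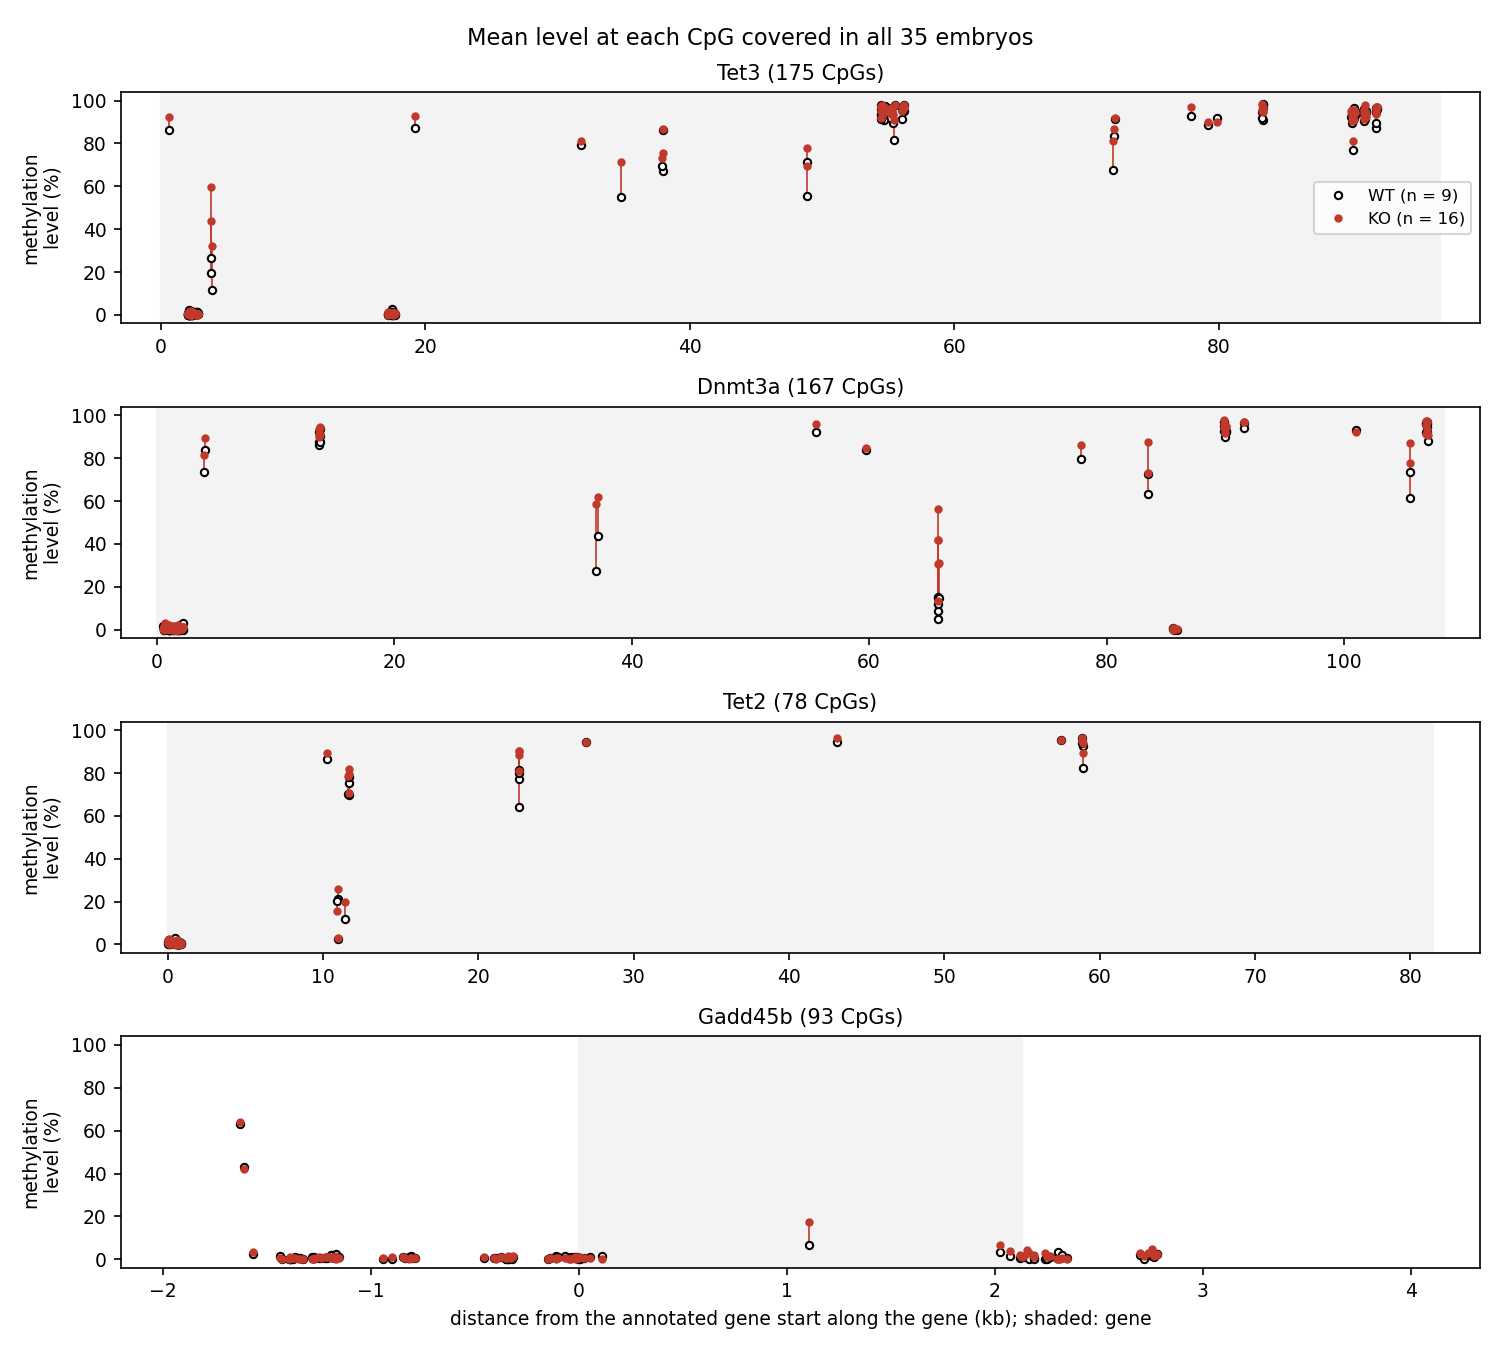
Mean methylation level (%) of each CpG covered in all 35 embryos at Tet3, Dnmt3a, Tet2 and Gadd45b, against distance from the annotated gene start along the gene (kb), with open black points for WT, red points for KO and a line joining them. CpGs at the starts sit near 0 in both genotypes, and the longest line, at Dnmt3a, runs from 15.5% in WT to 56.5% in KO.

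Over single CpGs, 337 could be tested in these genes and 252 of them were higher in KO. The share higher among all tested CpGs was not counted, so this number is not read as a trait of these genes. Of the 337, 20 were called, all higher, against 11.6% of all 548989 CpGs tested. Dnmt3a had 10, Tet3 6, Tet2 2, and Dnmt3l and Gadd45b 1 each, and none was called in Dnmt1, Dnmt3b, Uhrf1, Tdg or Mbd4. The called differences ran from 11.0 to 40.54 points with a median of 16.9. Of the 20, 11 lay in the 4 called tiles. Dnmt3l, Gadd45b and Tdg lie on chromosome 10, as does the targeted Tet1 gene. The paper states that the Tet1 allele was first made in another mouse strain and then backcrossed. KO embryos may therefore carry DNA of that strain near Tet1. In these genes, 2160 CpGs were read at least 5 times in some embryo. None of them had reads in 80% or more of the KO libraries and in no WT library, or the reverse. Presence of reads does not show which strain the DNA came from. The part of such DNA in the differences at Dnmt3l and Gadd45b was not tested.

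Within single diets fewer embryos stood behind each value. On 3 ppm, 2 of 17 regions were called (16.8% of all regions), the Dnmt3l promoter at 11.3 ± 2.45 points and the Dnmt3l body at 9.45 ± 3.18 points. With litter as a block, 1 was called, the Dnmt3l body, and the Dnmt3l promoter was not. On 0.1 ppm, 1 was called (12.1% of all), the Dnmt3a body at 22.5% in KO and 16.3% in WT (6.17 ± 1.42 points, adjusted p = 0.00344), and none was called without the WT library at odds with its label, which leaves 1 WT embryo that is assumed to vary as the KO embryos do. On 30 ppm none was called (0.0038% of all regions), with 2 members at an unadjusted p under 0.05 in the quasi-binomial test, the Mbd4 promoter and the Gadd45b body, and 0 called by limma. Of all regions, 21.4% were at an unadjusted p under 0.05 there. Without the libraries at odds with their labels, 2 members, the Tet2 body and the Dnmt3l promoter, and 16.5% of all regions were called on 30 ppm.

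Tiles within diets and between HET and WT were fitted in models added after the first results were seen. On 30 ppm, 1 of 30 tiles was called (5.66% of all tiles), the Dnmt3a tile at 19.6 ± 6.76 points (adjusted p = 0.0229). The Tet3 tile missed the threshold there at 17.6 ± 6.61 points (adjusted p = 0.0619). Without the 3 libraries these values on 30 ppm were 28.2 ± 2.93 and 26.4 ± 3.08 points, and 5 of 30 were called (16% of all tiles). On 3 ppm, 5 of 24 were called (16.3% of all tiles), with Tet3 at 33.4 ± 3.19 and Dnmt3a at 25.4 ± 1.74 points. On 0.1 ppm, 3 of 27 were called (11.2% of all tiles), with Tet3 at 26.4 ± 5.95 and Dnmt3a at 26.5 ± 2.15 points. The called tiles on 3 ppm included a stretch over the start of Aire within Dnmt3l (chr10:78043001-78044000), at 11.7 ± 2.31 points over 10 CpGs. Over the 6 of its CpGs covered in all WT and KO embryos, it differed by 4.22 points over diets and was not called. By diet those 6 CpGs differed by 3.97 points on 30 ppm, 4.45 on 3 ppm and 4.19 on 0.1 ppm.

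Heterozygous loss left no called region or tile in these genes. Over diets, 0 of 17 regions were called in HET against WT (0.0684% of all regions), with 2 at an unadjusted p under 0.05: the Dnmt3b body, at 91.5% in HET and 89.1% in WT (2.64 ± 0.694 points, adjusted p = 0.267), and the Tet2 promoter, at 0.499% and 0.609% (-0.144 ± 0.0693 points, adjusted p = 0.433). Of all regions, 10.6% were at an unadjusted p under 0.05. An equal-weight limma fit called 0 of 17 as well. Among tiles, 0 of 23 were called by the quasi-binomial test (0.277% of all tiles), and 0 of 23 without the 3 libraries (1.75% of all tiles).

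Maternal diet gave no called difference either, and the same holds for the difference of the KO effect between diets. Diet was given to dams, with 4 litters per diet, whereas these fits count embryos and hold no litter term. On 30 against 3 ppm over genotypes, 0 of 17 regions were called (0% of all), none of them at an unadjusted p under 0.05, and the differences ran from -1.91 ± 2.08 points at the Dnmt3l body to 3.15 ± 2.75 at the Dnmt3l promoter. On 0.1 against 3 ppm, 0 of 17 were called (0% of all), and the differences ran from -1.48 ± 1.97 points at the Dnmt1 promoter to 1.40 ± 2.07 at the Dnmt3l promoter. The Tdg promoter alone had an unadjusted p under 0.05, at 0.394% on 0.1 ppm and 0.715% on 3 ppm (adjusted p = 0.913). Of all regions, 5.38% were at an unadjusted p under 0.05 there, and 4.59% on 30 against 3 ppm. No difference of the KO effect was called between 30 and 3 ppm (0 of 17, 0% of all, none at an unadjusted p under 0.05). None was called between 0.1 and 3 ppm either (0 of 17, 0% of all). In that comparison 1 of 17, the Dnmt3a body at 3.95 ± 3.25 points, had an unadjusted p under 0.05, beside 4.23% of all regions. The quasi-binomial test and limma gave 0 in all 4. Of tiles, 0 of 22 were called on 30 against 3 ppm (0% of all tiles) and 0 of 23 on 0.1 against 3 ppm (0.00179% of all tiles). Without the 3 libraries these counts were 0 of 23 (0.00366% of all tiles) and 0 of 23 (0.0412% of all tiles). At the Tet3 tile, the KO effect was 15.9 ± 7.22 points smaller on 30 than on 3 ppm (adjusted p = 0.739), and 7.05 ± 4.65 points smaller without the 3 libraries. The SEs are wide at this tile.

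The wider methylation pathway was read through 33 further genes. Of their 26 tested promoters, 1 was called, and of 30 tested bodies 8 were called, all higher in KO, beside the shares of 8.65% and 23.7% given above. Their median differences were 0.0761 points for promoters and 1.98 points for bodies. The largest was the body of Smug1, a uracil glycosylase, at 19.4% in WT and 47.4% in KO (28.1 ± 2.85 points, adjusted p = 1.38e-09). It was followed by the body of Dppa3, a germline and zygote factor that protects methylation, at 17.9 ± 2.59 points. The promoter of Zbtb38, a methyl-CpG binding zinc finger gene, differed by 17.8 ± 2.77 points, the body of its relative Zbtb4 by 14.8 ± 1.89 points, and that of Cxxc1, which binds unmethylated CpG, by 14.2 ± 1.77 points. The body of Tet1 itself was at 34.26% in WT and 42.99% in KO (8.80 ± 1.58 points). No region of the list was called in HET.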

How the data were processed

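Oxidative bisulfite RRBS was made from 36 embryonic brains. Per the methods and the submitters' processing notes, the authors trimmed reads of MspI and TaqI digests (Trim Galore 0.6.10), aligned them to mm10 (Bismark 0.24.1), removed duplicates by molecular identifier (UMI-tools) and extracted calls. The deposited table of each library gives, for each CpG, a methylated fraction and a read count, as the authors made them. How calls from both strands were merged is not given in the sources used here. Fraction times count was whole on 100% of lines, which gave methylated reads. Positions, which count from 0, were raised by 1, and 3493603 of 3493603 then fell on a reference CG. Lists of differentially methylated regions deposited as positions were not used. With the oxidative step, oxidised forms of 5-methylcytosine are not counted as methylated, though their reads stay in the read count.

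The shallowest library (HET on 0.1 ppm replicate 2), which the study left out, was left out, giving 35. CpGs with at least 5 reads in all embryos were summed over promoters and bodies of GENCODE M21 genes (at least 3 CpGs), tiles of 1 kb (at least 3 CpGs, SD at least 2 points) and single CpGs (SD at least 2 points). A level is methylated reads over all reads, so CpGs with more reads weigh more in a region or tile. A quasi-binomial logistic model (Python 3.11.15, numpy 2.4.6) took its dispersion moderated as in limma and held at 1 or above, with a two-sided F test and Benjamini-Hochberg adjustment over all features of a comparison. Differences are coefficients of a linear fit of the embryos' levels, in percentage points, with SE. The code was tested on simulated data. An equal-weight fit used limma 3.58.1. The tests weigh differences against the spread between embryos. Where the dispersion was held at 1, they weigh them against read counting alone. Litter mates are not independent. Counting error alone bounds a level from few reads.

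All 10 members are named, with their called tiles (up to 3, or the largest difference if none) and the called CpG of largest difference, and up to 6 called genes of the pathway list. The members and lists were chosen with earlier results of these data known. Litters came from the sample titles (4 per diet). Deviations from group means of a KO and a WT littermate over all regions correlated at -0.11 to 0.376 (median 0.0639, 14 pairs), against a median of -0.019 for 34 pairs of different litters on one diet. Alternatives were coverage, litter block, libraries left out, thresholds, promoter definition and weights.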

Additional observations from a re-analysis of the deposited data

Results flagged for a closer look

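In 130 sets of values from 4 to 6 embryos, each a genotype on one diet at 1 region, tile or CpG, 5 held a value far from the rest by Dixon's criterion. Chance gives about 1 in 20 for independent sets. These sets reuse the same embryos, and some share CpGs, so they are not independent. The Tet3 tile was at 19.3% in the library labelled KO on 30 ppm replicate 1, with the next at 35.9%. The Dnmt3a tile was at 12.6% in the same library, with the next at 31.8%. That library is one of the 3 whose Tet1 CpG goes against the label, and the study lists that embryo as HET. The Dnmt3b body was at 87.8% in HET on 30 ppm replicate 4, with the next at 91.5%. The Uhrf1 promoter was at 1.37% in KO on 0.1 ppm replicate 1, with the next at 0.669%. The Tdg promoter was at 1.16% in KO on 0.1 ppm replicate 4, with the next at 0.340%. No difference of the KO effect between diets passed a test, and no data outside the comparisons held a signal to report.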

How the results depend on the processing

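The 4 called tiles kept their direction under every alternative that gave a value. Shares of all regions called stand in parentheses. Counts without a share do not tell whether these genes moved apart from the genome. Without the 3 libraries, 2 regions were called in KO against WT over diets in place of 1 (20.2%), 2 in place of 0 on 30 ppm (16.5%) and 0 in place of 1 on 0.1 ppm (13.4%). With the replicate block by litter, 2 regions were called over diets (15.7%) and 1 in place of 2 on 3 ppm (16.5%), and the block changed no other count of calls by over 1.5 times. At a minimum coverage of 10 reads the counts were 0 over diets, 0 on 3 ppm and 2 tiles in place of 4, and the Dnmt3l promoter and tile could not be tested, having fewer than 3 such CpGs. Embryos labelled norm (7 KO and 8 WT) gave 3 regions (18.2%), the Dnmt1 promoter and both Dnmt3l regions. This set also lacks KO on 30 ppm replicate 1 and WT on 0.1 ppm replicate 2, both at odds with their labels. Phenotype apart from these libraries was not tested. Start windows of 1 kb gave 2 (16.6%), and CpGs covered in the compared embryos 2 (16.3%). At 10 points for regions and 20 for tiles and CpGs, 1 region was called on 3 ppm, 0 on 0.1 ppm, 2 tiles and 8 CpGs in place of 20. Equal weights gave 1 on 3 ppm and 0 on 0.1 ppm. Leaving out single libraries gave 1 to 2 regions over diets, 0 to 2 on 0.1 ppm, 3 to 4 tiles and 17 to 25 CpGs. The Dnmt3l tile fell under 10 points without WT on 30 ppm replicate 1 (9.51), KO on 30 ppm replicate 2 (9.70), WT on 0.1 ppm replicate 1 (9.32) or KO on 3 ppm replicate 4 (9.95), and the Dnmt3l body passed 5 points without any of 7 libraries (5.11 to 6.60). On 0.1 ppm, leaving out WT replicate 2 gave 0 and KO replicate 5 gave 2 (11.0%), the Dnmt1 and Dnmt3a bodies.

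Differences near 0 that were not called changed sign. The Dnmt1 body was at 0.906 points without the 3 libraries, 0.176 at a coverage of 10, 0.0560 with the replicate block, 0.966 in embryos labelled norm, 2.36 with start windows and 1.15 with equal weights, and the Dnmt1 promoter at -1.01 with start windows. The Gadd45b promoter was at -0.0393 at a coverage of 10, -0.00776 with start windows and -0.0915 with equal weights. The Tdg promoter was at -0.00725 in embryos labelled norm and -0.0537 with equal weights, the Tet2 promoter at -0.0449 in embryos labelled norm, and the Dnmt3a promoter at -0.000437 without the 3 libraries. Leaving out single libraries took the Dnmt1 body from -1.03 to 0.605 points, the Dnmt3a promoter from -0.0248 to 0.164, the Gadd45b promoter from -0.0390 to 0.0987, the Tdg promoter from -0.0357 to 0.0595 and the Uhrf1 promoter from -0.0191 to 0.0571. The causes were not tested. Depth limits single CpGs, some of which were read 5 to 10 times in an embryo.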
